A study of Mus musculus with 2 samples.

Results

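Choline kinase and the enzymes that build phosphatidylcholine and phosphatidylethanolamine were examined in liver RNA of mice lacking apolipoprotein E. They comprise 9 genes: the kinases Chka, Chkb and Etnk1, the cytidylyl transferases Pcyt1a and Pcyt2, the head group transferases Chpt1 and Cept1, the methyltransferase Pemt and the lysophospholipid acyltransferase Lpcat3. Every probe set annotated with 1 of these symbols alone was taken, 17 of the 20380 probe sets that carry 1 gene symbol. All 9 genes had a measurable probe set, out of 7136 measured genes. The genes were chosen by pathway after the log2 ratio of Chka between these arrays was known to be among the highest, so the values of Chka are given as a description.

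The series holds 2 arrays, each of pooled liver RNA. The oleanolic acid array came from apolipoprotein E-deficient males on a C57BL/6J background that ate a semipurified Western diet with 0.01% oleanolic acid, a plant triterpenoid, a daily dose of 10 mg per kg, during 11 weeks. The control array came from males of the same genotype and background on the Western diet without oleanolic acid, also during 11 weeks. Both sets of mice were 2 months old by the labels. The 11 weeks of diet are longer than that, so it cannot be the age when livers were taken. Both sets lacked apolipoprotein E and ate the Western diet, so neither array shows a wild-type or chow-fed liver. How many mice were pooled and at what hour livers were taken is not stated in the labels. The growth protocol of both samples names oleanolic acid, so groups were taken from the titles. Neither diet has a replicate array, so no difference has a replicate check, no p-value was computed, and each ratio describes these arrays rather than the diets.

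Phosphatidylcholine is the main phospholipid of cell membranes, lipoproteins and bile. In the Kennedy pathway choline is phosphorylated by choline kinase, activated by a cytidylyl transferase and joined to diacylglycerol, and ethanolamine follows a parallel route to phosphatidylethanolamine. Hepatocytes also make phosphatidylcholine by methylating phosphatidylethanolamine with Pemt. Lpcat3 then reshapes the acyl chains of finished phospholipids by adding polyunsaturated fatty acids.

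Values are deposited signals in array units, and a log2 ratio is the oleanolic acid signal over the control signal. The error of a ratio, called the probe set SD, is the SD between the measured probe sets of a gene. Where a gene had 1 measured probe set, it is the pooled SD for genes of similar signal. It covers error within the arrays and not variation between mice. A probe set was called measured where its brighter signal was at or above that array's median, 59.3 in the oleanolic acid array and 61.5 in the control array. Of the 17 probe sets, 15 passed and 2 of the 3 for Etnk1 did not.

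The sequences before the start sites of the choline kinase genes are shown because these paralogs encode the same enzyme activity and had ratios of different size. They are the 250 bases upstream of the RefSeq start on build GRCm38.p6, 5′ to 3′ on the strand of the gene, at chr19:3851523-3851772 (plus strand) for Chka and chr15:89429928-89430177 (minus strand) for Chkb. Capitals mark CCAAT boxes (CCAAT) and GC boxes (GGGCGG), read on both strands.
Chka: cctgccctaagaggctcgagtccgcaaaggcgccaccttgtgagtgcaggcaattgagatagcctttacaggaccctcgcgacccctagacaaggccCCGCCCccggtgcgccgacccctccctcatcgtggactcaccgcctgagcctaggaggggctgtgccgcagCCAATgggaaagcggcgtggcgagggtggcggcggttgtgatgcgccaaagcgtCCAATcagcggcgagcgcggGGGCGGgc
Chkb: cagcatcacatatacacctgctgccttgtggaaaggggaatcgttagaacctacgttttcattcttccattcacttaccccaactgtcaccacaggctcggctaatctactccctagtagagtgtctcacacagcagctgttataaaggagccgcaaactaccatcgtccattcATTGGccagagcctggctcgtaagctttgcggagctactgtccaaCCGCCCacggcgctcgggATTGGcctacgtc
Chka has 2 CCAAT boxes and 2 GC boxes in this window, and Chkb has 2 CCAAT boxes and 1 GC box. G and C made up 68% of the Chka bases and 52.4% of the Chkb bases. Among all 32851 RefSeq windows of this length, 33.8% hold a CCAAT box and 32.7% a GC box. Of the 9 genes, 8 had an entry, with 13 windows between them, and Pcyt2 had none. CCAAT boxes stood in 5 of the 13 windows, covering 5 genes, and GC boxes in 9, covering 7 genes. The median G and C content was 66.8%, against 52.4% over all windows. Motifs read by clock factors were also searched on both strands: the E-box (CACGTG), the ROR element (AGGTCA) and the D-box (TTATGTAA). None of these letter strings stood in the 13 windows, and they stand in 6.02%, 14.0% and 0.819% of all windows. A match is a description and not a binding site, and these windows hold no more distant elements.

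Chka, which encodes choline kinase alpha, the first enzyme of the choline branch, had the largest ratio of the 9 genes. Its single probe set gave a signal of 259 in the oleanolic acid array, against 106.1 in the control array. The log2 ratio was 1.29 with a probe set SD of 0.25, which is 2.44-fold higher with oleanolic acid. Both signals lay above the array medians. The ratio did not reach 1.5, the size that the submitters' design text used for further consideration, and it was past a log2 ratio of 1. Of all 7136 measured genes, 0.392% were above 1 and 0.112% above 1.5. Chka was the 13th highest gene by log2 ratio. It belonged to the second of 4 equal bands of mean signal, from 124.8 to 241.8 units, whose central 95% of ratios ran from -0.50 to 0.47. In that band of 1784 genes, 7 were above 1 and 4 were at or above the Chka value, Chka included. Chka rests on 1 probe set, as do 20 of the 28 genes above 1, so no second probe set was at hand to compare with it.

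Chkb, the other choline kinase gene, was higher in the oleanolic acid array by a smaller amount. Its signals were 735.9 in the oleanolic acid array and 575.4 in the control array, 1.28-fold higher with a log2 ratio of 0.35 (probe set SD 0.13). The log2 ratio of Chka exceeded that of Chkb by 0.93, with a combined probe set SD of 0.28. A further probe set is shared by Chkb, Cpt1b and Gm44502 in the annotation and was left out by the rule. It gave 63.5 in the oleanolic acid array and 74.1 in the control array. The log2 ratio of -0.22 was opposite in sign to the Chkb probe set. The transcripts behind that signal cannot be told apart.

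Etnk1 encodes an ethanolamine kinase that starts the parallel branch. Its measured probe set gave 824.5 in the oleanolic acid array and 814.6 in the control array, for a log2 ratio of 0.02 (probe set SD 0.13). The 2 dim probe sets gave 23.6 and 21.2 in the oleanolic acid array, against 25.6 and 23.6 in the control array. The difference in Etnk1 was therefore smaller than its probe set SD, unlike those of the choline kinases. For each of these kinases that SD is the pooled value of genes of similar signal and not a spread of its own.

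**Figure D1:**
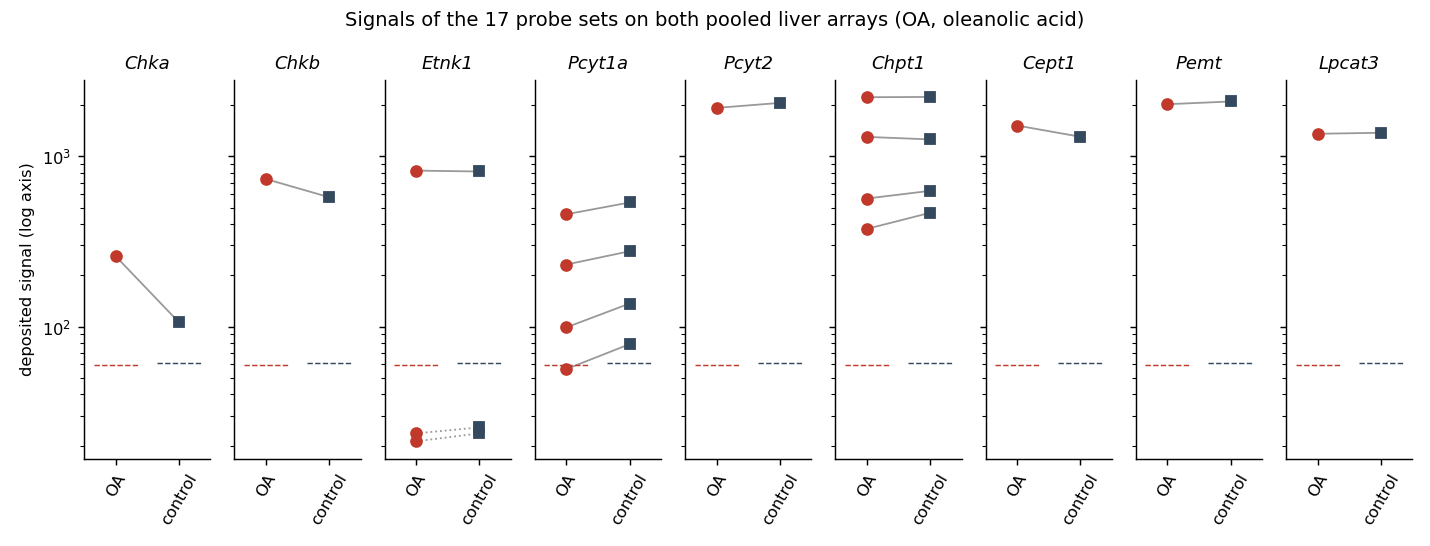
Deposited signals (log axis) of the 17 probe sets of the 9 genes on the oleanolic acid array (OA, red circles) and the control array (dark squares), with a line joining the points of a probe set, dotted for the 2 that were not measured. Dashes mark the array medians of 59.3 and 61.5. The Chka line is the steepest, between 259 and 106.1.

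Pcyt1a, the cytidylyl transferase that makes CDP-choline and is usually regarded as the slow step of the choline branch, was lower in the oleanolic acid array on every probe set. The brightest gave 457 in the oleanolic acid array and 535.7 in the control array, and the next gave 231.5 in the oleanolic acid array and 277.1 in the control array. The dimmer pair gave 99 and 56.3 in the oleanolic acid array, against 136.6 and 78.9 in the control array. The log2 ratios ran from -0.49 to -0.23, and their mean was -0.36 ± 0.13 (SD, n = 4 probe sets), 1.28-fold lower with oleanolic acid. All 4 probe sets thus had one sign, with the larger ratios on the dimmer ones, and the dimmest was measured through the control array alone. Among 167 genes with 4 measured probe sets, 34 (20.4%) had every probe set lower, and 4 of those had a mean ratio at or below that of Pcyt1a, Pcyt1a included. Ratios in the choline branch were thus above 0 for both choline kinases and below 0 for Pcyt1a. Of all measured genes, 50.2% were above 0 and 49.7% below, so opposite signs alone show no pattern. Pcyt1a lay inside the central range of ratios of its signal band, -0.50 to 0.47. Chkb lay inside that of its own band, -0.36 to 0.45.

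Pcyt2, the cytidylyl transferase of the ethanolamine branch, gave 1925 in the oleanolic acid array and 2060 in the control array. Its log2 ratio of -0.10 was smaller than its probe set SD of 0.13.

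The transferases that join the activated head group to diacylglycerol differed little. Chpt1, the cholinephosphotransferase, had 4 measured probe sets, of which the brightest gave 2224 in the oleanolic acid array and 2232 in the control array. The others gave 1301, 565.4 and 374.9 in the oleanolic acid array, against 1257, 627 and 466 in the control array. Their log2 ratios ran from -0.31 to 0.05 and averaged -0.10 ± 0.16 (SD, n = 4 probe sets), so the probe sets disagreed in sign and the mean lay within their spread. Cept1, which uses both CDP-choline and CDP-ethanolamine, gave 1516 in the oleanolic acid array and 1303 in the control array, 1.16-fold higher with a log2 ratio of 0.22 (probe set SD 0.13). In the band of brightest genes, to which Cept1 and Chkb belong, the central 95% of ratios ran from -0.36 to 0.45, so both lay inside it.

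Pemt and Lpcat3 had nearly equal signals on the arrays. Pemt, the liver methyltransferase, gave 2023 in the oleanolic acid array and 2100 in the control array, for a log2 ratio of -0.05 (probe set SD 0.13). Lpcat3 gave 1357 in the oleanolic acid array and 1375 in the control array, for a log2 ratio of -0.02 (probe set SD 0.13). Both differences were smaller than the probe set SD.

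**Figure D2:**
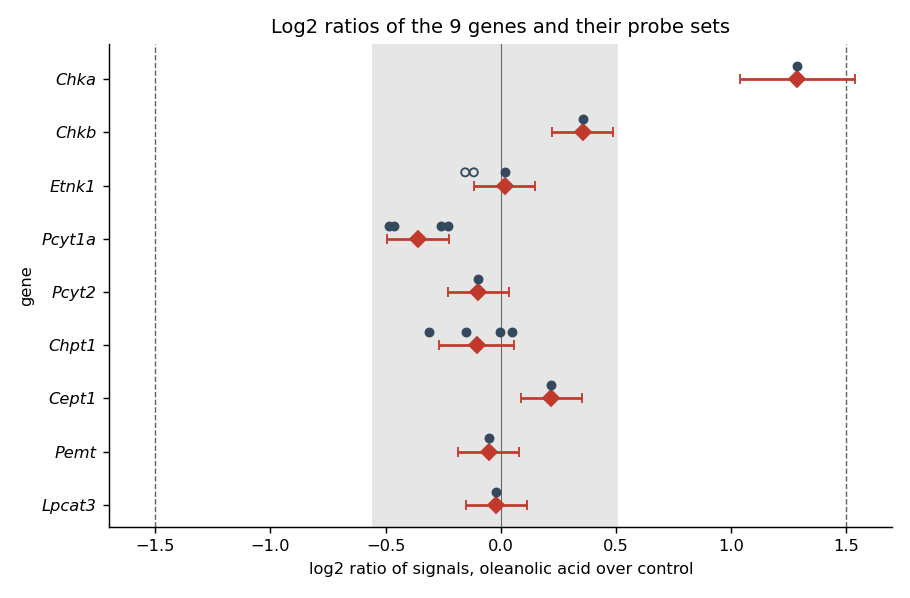
Log2 ratio of signals, oleanolic acid over control, for each of the 9 genes (red diamonds, bars of 1 probe set SD) and for their probe sets (dots, open for the 2 that were not measured). Grey marks the central 95% of all measured genes, -0.56 to 0.51, and dashed lines mark 1.5 and -1.5. Chka, at 1.29, is the only gene of the set outside the grey band.

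Across the set, 4 genes had a ratio above 0 and 5 below, against 50.2% of all measured genes above 0 and 49.7% below. Past 0.5 there was 1 gene higher, Chka, and none lower, against a background of 2.63% of genes above 0.5 and 3.24% below -0.5. The remaining 8 genes lay within 0.5 of 0, as did 94.1% of all genes. The median of the 9 ratios was -0.02, and that of all measured genes 0.0012. Besides Chka, the genes whose ratio exceeded their probe set SD were Chkb, Pcyt1a and Cept1. The share of all measured genes that exceeded theirs was not computed, so passing this SD does not set these genes apart. Pcyt1a lay inside the central range of ratios of its signal band, -0.50 to 0.47. Chkb and Cept1 lay inside that of theirs, -0.36 to 0.45. The plot of all measured genes shows Chka above the cloud of genes of similar signal and the other members inside it.

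**Figure D3:**
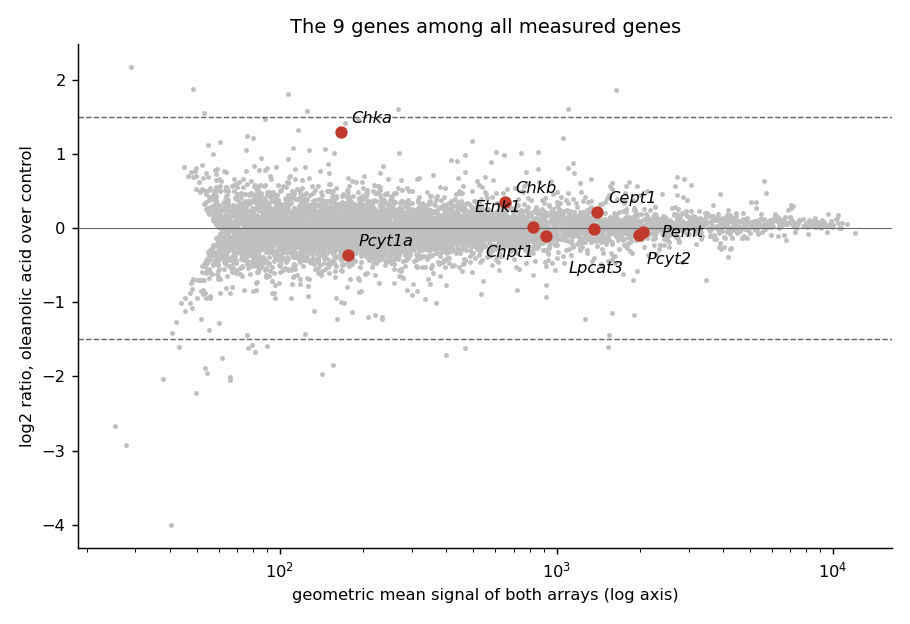
Log2 ratio, oleanolic acid over control, against the geometric mean signal of both arrays (log axis) for 7136 measured genes (grey), with the 9 genes in red. Dashed lines mark 1.5 and -1.5. Chka lies at 1.29 and the other 8 genes between -0.36 and 0.35.

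The surrounding genes of phospholipid and choline metabolism were read from 9 lists holding 75 genes, of which 58 had a single-symbol probe set and 50 were measured. Ratios were above 0 in 27 and below 0 in 23, with a median of 0.0081, against 50.2% and 49.7% of all measured genes. Within 0.5 of 0 lay 48 of the 50, as did 94.1% of all measured genes. None was past 1 in either direction, against 0.392% of all measured genes above 1 and 0.631% below -1. The list of other Kennedy pathway genes (Etnk2, Pcyt1b, Selenoi, Etnppl, Phospho1) had no such probe set and was not analysed here.

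The ratio furthest from 0 among these 50 genes was that of Gpcpd1, which cleaves glycerophosphocholine, a breakdown product of phosphatidylcholine. Its probe set gave 660.9 in the oleanolic acid array and 1264 in the control array, 1.91-fold lower in the oleanolic acid array (log2 ratio -0.94, probe set SD 0.13). Gde1, a glycerophosphodiester phosphodiesterase, gave 923.7 in the oleanolic acid array and 1200 in the control array (-0.38, probe set SD 0.13). In the same breakdown list Pld1, a phospholipase D that releases choline from phosphatidylcholine, was at 0.56 (probe set SD 0.27), and Pla2g12b, a secreted phospholipase A2-like protein of liver, was at 0.48 (probe set SD 0.13). Of the 14 measured genes of that list 1 was above 0.5 and 1 below -0.5, with a median of -0.07. The shares of all measured genes were 2.63% and 3.24%.

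Genes of choline uptake and oxidation were near 0. The choline transporter-like genes Slc44a1 and Slc44a2 were at 0.05 and 0.06, and Slc44a3 at -0.34 (probe set SD 0.27). Slc44a3 gave 51.2 in the oleanolic acid array and 64.9 in the control array, and was measured through the control array alone. All 10 measured genes of choline oxidation and methyl group supply lay within 0.5 of 0, as did 94.1% of all measured genes. Their median was 0.0076. Bhmt, which passes a methyl group from betaine to homocysteine, had the largest ratio of them, with 7503 in the oleanolic acid array and 6337 in the control array (0.24, probe set SD 0.13). Sardh was at -0.15 ± 0.31 (SD, n = 2 probe sets, which differed in sign), Gnmt at 0.15 and Mat2b at -0.12. Mat1a and Ahcy, which make S-adenosylmethionine and recycle its product, had ratios of -0.0033 and 0.00043.

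Among genes that move phosphatidylcholine, Pctp, a cytosolic transfer protein, had the largest ratio, 0.29 ± 0.06 (SD, n = 2 probe sets). Lcat, which esterifies cholesterol in plasma lipoproteins, was at 0.16, and Abcb4, which exports phosphatidylcholine into bile, at 0.12. Stard7 was at -0.12. All 7 measured genes of this list lay within 0.5 of 0, as did 94.1% of all measured genes. Their median was 0.11, and 5 of them were above 0, against 50.2% of all measured genes.

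Other branches of glycerophospholipid synthesis held no gene past 0.5, against 2.63% of all measured genes above 0.5 and 3.24% below -0.5. In the CDP-diacylglycerol branch, which leads to phosphatidylinositol and cardiolipin, Tamm41 was at -0.47 and Pgs1 at 0.31 (probe set SD 0.27 each). Tamm41 was measured through the control array alone and Pgs1 through the oleanolic acid array alone, so the filter partly sets their ratios. Ptpmt1 was at -0.26 and Cds2 at 0.13, and the median over 6 genes was 0.02. The phosphatidylserine synthase genes Ptdss1 and Ptdss2 were at -0.13 ± 0.03 (SD, n = 2 probe sets) and 0.15 ± 0.63 (SD, n = 4 probe sets). Among other lysophospholipid acyltransferases, Lpcat1 was at -0.32, Lpgat1 at -0.22 ± 0.11 (SD, n = 4 probe sets), Lclat1 at 0.08 and Mboat7 at 0.02. Among sphingomyelin genes, the synthase Sgms1 was at -0.26, Smpd2 at 0.20, Smpd1 at 0.17 and Samd8 at 0.0015. Lpcat3 is a target of the sterol-sensing liver X receptors in mouse liver. Other genes of that group had a median of -0.11, all 7 within 0.5 of 0, as were 94.1% of all measured genes. Of these, Abcg5 was at -0.33, Srebf1 at -0.24, Mylip at 0.21 and Abcg1 at 0.20.

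**Figure D4:**
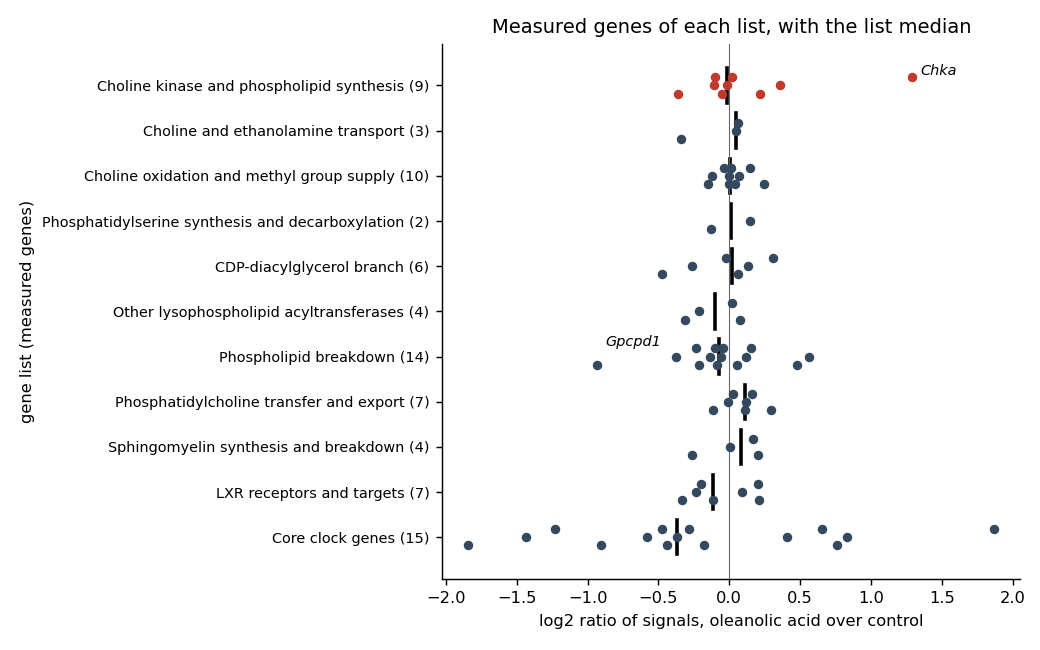
Log2 ratio, oleanolic acid over control, of each measured gene in the 9-gene set (red) and in the related lists (dark), with the number of measured genes in brackets and a black bar at each list's median. Chka (1.29) and Gpcpd1 (-0.94) stand furthest out among the phospholipid and choline genes, and the clock genes spread from -1.84 to 1.87.

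Chka is known from work in mouse liver as a gene under control of the circadian clock, and clock genes differed between the arrays. Of 15 measured clock genes, 4 were above 0.5 and 5 below -0.5, with a median of -0.37. Of all measured genes, 2.63% were above 0.5 and 3.24% below -0.5. Arntl, the clock activator, was at 1.87, and Nr1d1, which encodes the repressor REV-ERB alpha, at 0.83. The control signals of Arntl (25.3) and Nr1d1 (60.4) lay below that array's median of 61.5. Both were measured through the oleanolic acid array alone, so the filter partly sets their ratios. The related gene Nr1d2 was at -0.58, with 1597.5 in the oleanolic acid array and 2392.4 in the control array. Per3 (-1.84), Per2 (-1.43) and Dbp (-1.23) lay below -1. The part of the clock in the Chka ratio was not tested.

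The genes closest to Chka in log2 ratio, over the 2 arrays and among genes above the floor on both, were Defb1 (1.32), Rfxank (1.24), E2f8 (1.21), Insig2 (1.21), Cldn1 (1.41) and Sco2 (1.17). The control signals of Rfxank (49.7) and E2f8 (52.8) lay below that array's median of 61.5. Both genes were measured through the oleanolic acid array alone, so the filter partly sets their ratios. With 2 arrays, likeness is a likeness of that single ratio.

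Hepatocyte markers marked both arrays as liver. Signals summed over all probe sets of 8 marker genes were 118633 in the oleanolic acid array and 116077 in the control array. Within 0.5 of 0 lay 7 of the 8 genes, as did 94.1% of all measured genes. Markers of some other tissues and cells were lower in the oleanolic acid array, and in bulk RNA fewer cells of a type and less RNA per cell cannot be told apart. Exocrine pancreas markers summed to 455 in the oleanolic acid array and 1640 in the control array. The 8 measured genes had mean signals of 18.7 to 51.6 in the oleanolic acid array, below its median, so they counted as measured through the control array and their ratios below -1, against 0.631% of all genes, are partly set by that filter. The B and plasma cell list summed to 481.7 in the oleanolic acid array and 1594 in the control array, where Ighm was at -1.97 ± 1.31 (SD, n = 3 probe sets). Jchain was at -1.61 (probe set SD 0.27) and was measured through the control array alone, while 0.28% of all genes were below -1.5. Cd79a, Cd79b and Ms4a1 of the same list were not measured. Cd79a and Cd79b gave 7.8 and 41.2 in the oleanolic acid array, against 7.3 and 40.6 in the control array. The probe sets of Ms4a1 gave 29.2 and 11.6 in the oleanolic acid array, against 47.5 and 17 in the control array. The lower sum thus did not hold for every gene of the list. Adipocyte markers summed to 567.6 in the oleanolic acid array and 1042 in the control array, where Fabp4 was at -0.87 and Plin4 at -0.11. Ucp1 lay at the floor with oleanolic acid and was measured through the control array alone. Adipoq, the defining gene, was not measured, with 9.2 in the oleanolic acid array and 47.7 in the control array. Macrophage markers summed to 15871 in the oleanolic acid array and 16753 in the control array. Below 0 were 9 of 10 genes, against 49.7% of all measured genes. Endothelial and stellate lists summed to 2908 and 6737 in the oleanolic acid array, against 2896 and 6810 in the control array. T and NK cell markers summed to 151.8 in the oleanolic acid array and 228.8 in the control array, with 1 measured gene. Cholangiocyte markers summed to 140.7 in the oleanolic acid array and 138.1 in the control array, also with 1 measured gene. That gene, Epcam, was at -0.94 and was measured through the control array alone. The dim probe sets of Sox9 gave 40.7 and 23.7 in the oleanolic acid array, against 16.1 and 14 in the control array. The nearly equal sums thus hold differences of either sign. No marker probe set was at 0 on either array. Their part in the ratios of the 9 genes was not tested.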

How the data were processed

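Liver RNA, pooled by diet, was hybridized as biotin-labelled cRNA to Affymetrix 3′ expression arrays, per the labels' protocols. The authors deposited 1 linear intensity (signal) for each probe set, computed by MAS5 according to the submitters' processing notes, which name no version. The mean signal after trimming 2% at each end was 300.1 on each array, so the values had been scaled alike. The table holds no detection calls, and the number of arrays limits precision.

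Gene names came from the platform annotation, and 20351 of 20380 single-symbol probe sets matched a RefSeq gene of GRCm38.p6 by identifier. After leaving out 64 control probe sets, signals were floored at the array's 25th percentile, 10.1 in the oleanolic acid array and 10.7 in the control array, and log2 ratios were taken with Python 3.11.15 (pandas 2.3.3, numpy 2.4.6). Measured probe sets of a gene were averaged. Pooled SDs between probe sets in 4 signal bands were 0.27, 0.25, 0.17 and 0.13, from 2427 genes with at least 2 measured probe sets.

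Described sizes were log2 ratios past 1.5, 1 and 0.5. Named genes were all members, up to 4 genes per related list by absolute ratio, and the 6 genes nearest to Chka. Mat1a, Ahcy, Nr1d1, Nr1d2 and the dim marker genes Cd79a, Cd79b, Ms4a1 and Sox9 were named after their values were seen. The members and lists were chosen with earlier results of these data known. The procedure was tested on simulated data, and 9 alternative settings were run.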

Additional observations from a re-analysis of the deposited data

How the results depend on the processing

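The 9 alternative settings changed the floor, the probe sets counted, the way probe sets were combined or the scaling. Of 225 values (25 results), 224 stayed close to the main setting. Genes moved by less than their probe set SD, and counts stayed within 1.5 times. List medians have no probe set SD of their own. All but 1 of their values moved by less than 0.2033, the SD pooled over all genes with several measured probe sets. Chka ran from 1.29 to 1.31, Chkb from 0.35 to 0.39, Pcyt1a from -0.36 to -0.23 (its brightest probe set alone) and Cept1 from 0.21 to 0.22. The number of members above 1 was 1, and above 1.5 it was 0, in every setting run. Chka, Chkb, Cept1, Pcyt2, Pemt and Lpcat3 each have 1 probe set, with both signals above the array medians. Only the changes of scaling could therefore move their ratios. The other settings could not test them, nor the place of Chka in these counts. Etnk1 had either sign, from -0.08 to 0.03, within its probe set SD. The exception was the median of the phosphatidylserine list, 0.0098 in the main setting and -0.25 with the _x_at and _s_at types of probe set removed, which leaves out the probe sets that gave Ptdss2 its values above 0. Over all genes the background count was 28 above 1 and 45 below -1, against 64 and 122 with all probe sets counted, 18 and 18 where both signals had to reach the median, and 18 and 25 with the floor at the median. No paired analysis was possible because each diet has 1 array. Chka and 5 other members have 1 probe set, and Etnk1 has 1 measured probe set of 3. Detection of dim probe sets is unknown, and no setting replaces the missing replicate arrays.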

Other observations

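Ptdss2, a phosphatidylserine synthase gene, had probe sets that disagreed more than those of any of the 9 genes. Its 4 measured probe sets gave 273.7, 155.6, 134.5 and 63.9 in the oleanolic acid array, against 332.1, 80.2, 106 and 85.8 in the control array. Their log2 ratios were -0.28, 0.96, 0.34 and -0.43. The ratios above 0 came from the probe sets whose names end in _x_at, which Affymetrix uses for probe sets that may bind other transcripts. The 4 probe sets of Lpgat1, a lysophospholipid acyltransferase gene, had one sign, with log2 ratios of -0.06, -0.28, -0.28 and -0.25.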
